A study of Mus musculus with 4 samples.

Results

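The genes described here are the developmental transcription factors of 9 families outside the Hox clusters, chosen by symbol alone: Sox, Pax, Lhx, Tbx, Dlx, Irx and Nkx genes, the sine oculis homeobox genes, and forkhead genes of the groups Foxa to Foxg. The rule gave 97 of 21887 protein-coding genes: 19 Sox, 16 Fox, 14 Nkx, 13 Tbx, 9 Pax, 8 Lhx, 6 Dlx, 6 Irx and 6 sine oculis genes. The cells were peritoneal macrophages elicited with thioglycollate broth from C57BL/6 mice aged 8 weeks, adherent in culture dishes, and given either LPS, the cell-wall lipid of Gram-negative bacteria that macrophages sense through Tlr4, or PBS as vehicle for 24 h. All groups share strain, age and elicitation, and whether animals were pooled is not given in the sources used here. Chromatin immunoprecipitation with sequencing (ChIP-seq) was done for H3K4me3, the mark of promoters, and H3K9me3, the mark of silenced chromatin, with 1 library per mark and treatment. No difference between treatments therefore has a replicate check, and none has a p-value. The intervals given below are exact 95% Clopper-Pearson intervals on how the tags of a gene split between the libraries, and they cover counting error only.

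These families encode DNA-binding proteins that set cell fates in the embryo. Sox proteins bind through an HMG box, Pax proteins through a paired domain, Tbx proteins through a T-box, Fox proteins through a forkhead domain, and Lhx, Dlx, Irx, Nkx and sine oculis proteins through homeodomains. Most are silent in adult blood cells, and in embryonic stem cells many of their CpG-rich promoters are known to carry H3K4me3 together with the Polycomb mark H3K27me3, a state called bivalent. H3K27me3 was not among the marks analysed here. In a mixed cell population a mark on fewer cells and less of the mark per cell cannot be told apart.

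The libraries held 26748289 filtered tags for H3K4me3 LPS and 29681491 for H3K4me3 PBS, and 28586946 for H3K9me3 LPS and 27727997 for H3K9me3 PBS. Tags inside the listed H3K4me3 peaks were 14% of the LPS library and 17.8% of the PBS library, and for H3K9me3 they were 1.62% in LPS and 1.69% in PBS. Tags were 49 bp long in the H3K4me3 LPS library and 50 bp in the H3K4me3 PBS library. The fragment size that peak calling estimated was 149 bp for H3K4me3 LPS and 142 bp for H3K4me3 PBS. For H3K9me3 it was 71 bp in LPS and 66 bp in PBS, not far above the tag length of 50 bp. Over the 13151 genes with an H3K4me3 peak in both lists, the median log2 LPS to PBS ratio of tags was -0.36, and values of the developmental factors are read beside it. Of 10 macrophage markers, 10 had H3K4me3 at a gene end in the LPS list and 9 in the PBS list.

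Most of the developmental factors carried H3K4me3 in these macrophages under both treatments. A peak lay within 1 kb of a gene end in both lists for 74 of 97 (76.3%), beside 60.1% of all protein-coding genes. Among genes of up to 10 kb this was 56 of 65 factors (86.2%), beside 43.6% of 7926 genes, and above 10 kb it was 18 of 32 factors (56.2%), beside 69.5% of 13961 genes. So the factors stood above other genes in the short class and below them in the long class. The LPS list alone held a peak for 1 factor (1.03%, beside 1.26% of all genes), and the PBS list alone for 7 (7.22%, beside 3.14%). The remaining 15 had no peak at either end. Both lists held a peak for 16 of 16 Fox, 6 of 6 Dlx, 18 of 19 Sox, 12 of 14 Nkx and 5 of 6 sine oculis genes. The same held for 8 of 13 Tbx, 4 of 8 Lhx, 3 of 6 Irx and 2 of 9 Pax genes, so at the gene ends the forkhead and Dlx families were marked throughout and the Pax family least. Around annotated starts only, the peak was in both lists for 4 of 7 Pax, 4 of 9 Tbx and 6 of 11 Nkx genes, and on the bodies for 7 of 9 Pax, 10 of 13 Tbx and 4 of 6 Irx genes, so the order of the families turned with the place counted. With the whole gene body counted, a peak in either list lay on 92 of 97 factors (94.8%), beside 70.8% of all genes.

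**Figure D1:**
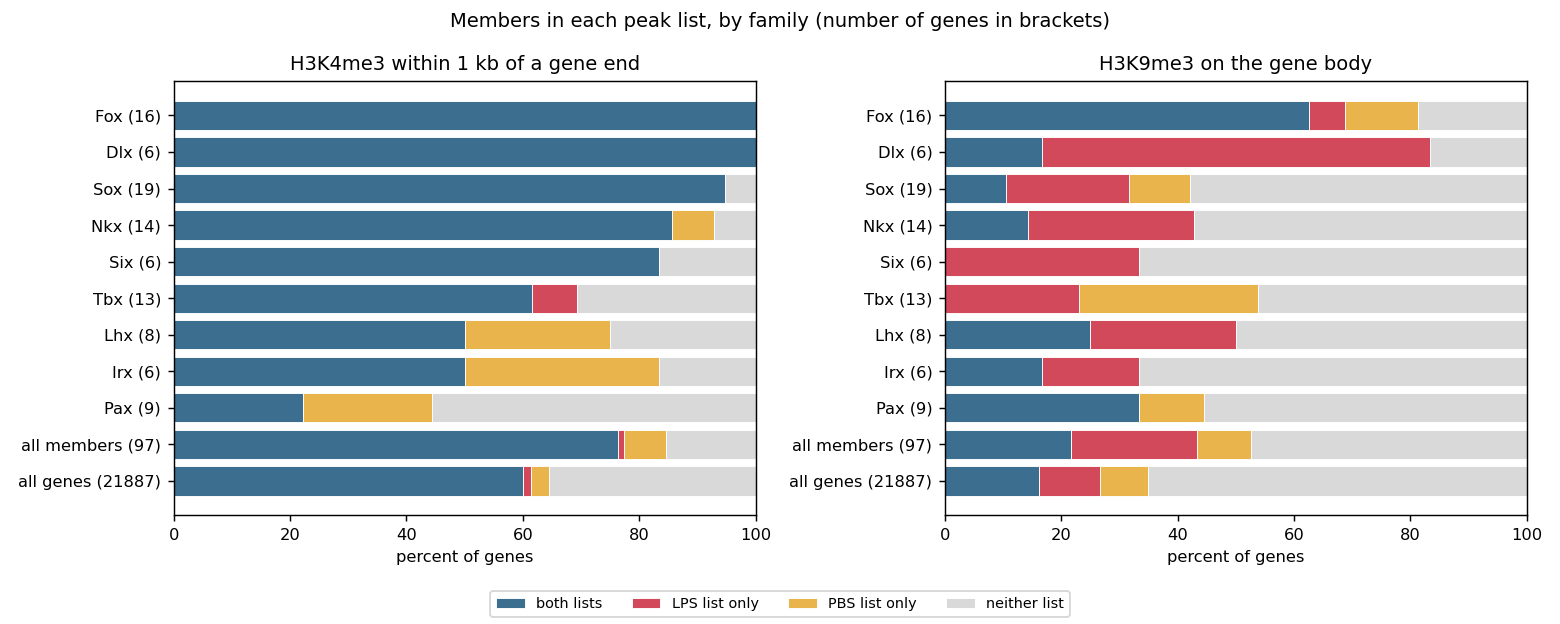
Percent of genes (x axis) in both lists, the LPS list only, the PBS list only or neither, for H3K4me3 within 1 kb of a gene end (left) and H3K9me3 on the gene body (right), by family (the fifth bar from the top is the sine oculis family), for all 97 factors and for all 21887 genes. All 16 Fox and 6 Dlx genes had H3K4me3 in both lists, and 10 of the 16 Fox genes also had H3K9me3 in both.

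The gene bodies recovered most factors that lacked a peak at their ends. Of those 15, 11 had a peak on the body, 10 of them in both lists. Nkx2-1, the factor that specifies lung and thyroid, had 57 H3K4me3 tags on its body in LPS and 46 in PBS. Pax7, of muscle stem cells, had 33 tags in LPS and 37 in PBS, and Tbx5, of heart and forelimb, had 56 tags in LPS and 98 in PBS. Counting both ends and bodies, 93 of 97 factors had H3K4me3 in at least 1 list. That count was not made over all genes, of which 70.8% had a peak on the body in either list. The 4 with none, named because the class is so small, were Pax4 of pancreatic islets, Tbx6 of presomitic mesoderm, Sox14 of interneurons and Tbx22 of the palate.

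The promoters of the group ranged from rich to poor in CG base pairs, and 4 are shown to set that range beside their H3K4me3 state. The sequences are RefSeq promoters on GRCm38.p6, running from 250 bases before to 50 bases after the annotated start, 5′ to 3′ on the gene's strand, with each CG pair in capitals. Sox2 lies at chr3:34649745-34650044 (plus strand), Nkx2-4 at chr2:147085296-147085595 (minus), Sox14 at chr9:99876121-99876420 (minus) and Tbx22 at chrX:107667714-107668013 (plus).
Sox2: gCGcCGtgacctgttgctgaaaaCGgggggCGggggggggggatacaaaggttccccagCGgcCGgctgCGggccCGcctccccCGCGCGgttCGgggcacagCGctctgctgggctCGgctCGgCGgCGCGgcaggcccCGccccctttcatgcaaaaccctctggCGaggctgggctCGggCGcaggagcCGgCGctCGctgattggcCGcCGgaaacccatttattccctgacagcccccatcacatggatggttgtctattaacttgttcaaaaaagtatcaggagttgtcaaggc
Nkx2-4: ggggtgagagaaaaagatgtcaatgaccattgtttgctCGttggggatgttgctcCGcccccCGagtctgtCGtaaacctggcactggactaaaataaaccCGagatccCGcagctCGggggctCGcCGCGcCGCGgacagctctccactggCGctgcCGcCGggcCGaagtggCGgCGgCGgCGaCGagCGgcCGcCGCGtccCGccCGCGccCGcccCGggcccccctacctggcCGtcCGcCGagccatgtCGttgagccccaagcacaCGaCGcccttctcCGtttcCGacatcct
Sox14: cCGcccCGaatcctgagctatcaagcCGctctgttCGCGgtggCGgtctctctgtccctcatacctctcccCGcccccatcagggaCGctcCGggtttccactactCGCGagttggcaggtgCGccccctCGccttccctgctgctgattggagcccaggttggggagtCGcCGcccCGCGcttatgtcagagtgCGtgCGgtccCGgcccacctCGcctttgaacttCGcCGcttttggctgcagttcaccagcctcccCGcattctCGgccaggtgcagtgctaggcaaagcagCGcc
Tbx22: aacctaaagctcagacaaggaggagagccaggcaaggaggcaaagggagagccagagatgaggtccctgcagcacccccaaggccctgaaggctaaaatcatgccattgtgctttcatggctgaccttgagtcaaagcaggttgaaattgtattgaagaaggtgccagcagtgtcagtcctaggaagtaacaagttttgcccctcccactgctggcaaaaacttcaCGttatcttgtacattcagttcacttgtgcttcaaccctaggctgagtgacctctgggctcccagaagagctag
The motif CG reads the same on either strand and cannot overlap itself, and 95.4% of 21263 promoters of this length held at least 1. The Nkx2-4 window held 38 CG pairs, Sox2 27, Sox14 26 and Tbx22 1, beside a median of 13 over all promoters (quartiles 4 and 24). H3K4me3 peaks covered all 300 bases of the Nkx2-4 window in both LPS and PBS. In the Sox2 window the LPS peaks covered 3 bases and the PBS peak all 300. Sox14 had nearly as many CG pairs as Sox2, yet its nearest H3K4me3 peak lay 17.2 kb away in the LPS list and 6.94 kb away in the PBS list. Tbx22, with its single CG pair, had its nearest peak 147 kb away in both lists. The table held a promoter for 68 of the 97 factors (70.1%), under the 80% set as a minimum, so a check of base composition over the whole group is void.

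Among the factors marked in both lists, H3K4me3 was nearly as high in LPS as in PBS, whereas most genes had fewer tags in LPS. The median log2 LPS to PBS ratio over the 74 factors was -0.08 (quartiles -0.23 and 0.06), and it moved to 0.02 when scaled to total instead of filtered tags. All genes had a median of -0.36, so the factors stood 0.28 above it on either scaling, with 63 of 74 above the all-gene median (85.1%, beside 50% of all genes by construction). The counting interval held 0 for 53 factors (71.6%, beside 29.2% of 13151 genes), lay above 0 for 6 (8.11%, beside 2.48%) and below 0 for 15 (20.3%, beside 68.3%). It lay above the all-gene median for 42 factors (56.8%, beside 13.4%) and below it for 3 (4.05%, beside 13.3%). The width of an interval depends on the number of tags of a gene. The ratio lay within 0.5 of 0 on the log2 scale for 67 factors. That share was not counted over all genes, whose quartiles of -0.53 and -0.22 place many of them in the same range. The distance from other genes was smaller per covered kb, where the medians were -0.07 for the factors and -0.21 for all genes, 0.13 apart.

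Every family with 3 or more genes in both lists had a median above that of all genes. The family medians on the log2 scale were -0.08 for 16 Fox, -0.10 for 18 Sox, -0.09 for 12 Nkx, -0.15 for 8 Tbx, -0.03 for 6 Dlx, -0.08 for 5 sine oculis, 0.04 for 4 Lhx and 0.05 for 3 Irx genes. The 32 Hox genes in both lists, the homeobox genes of the body axis, had a median of -0.04. The ratio of the factors was also read within 10 classes of tag density (tags per covered kb), since they were more weakly marked than other genes. The 16 factors in the lowest class had a median of -0.08, beside -0.25 for its 1316 genes, and the 17 in the next had -0.08, beside -0.43. Relative to genes of the same density class the median of the factors was 0.31 on the log2 scale.

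**Figure D2:**
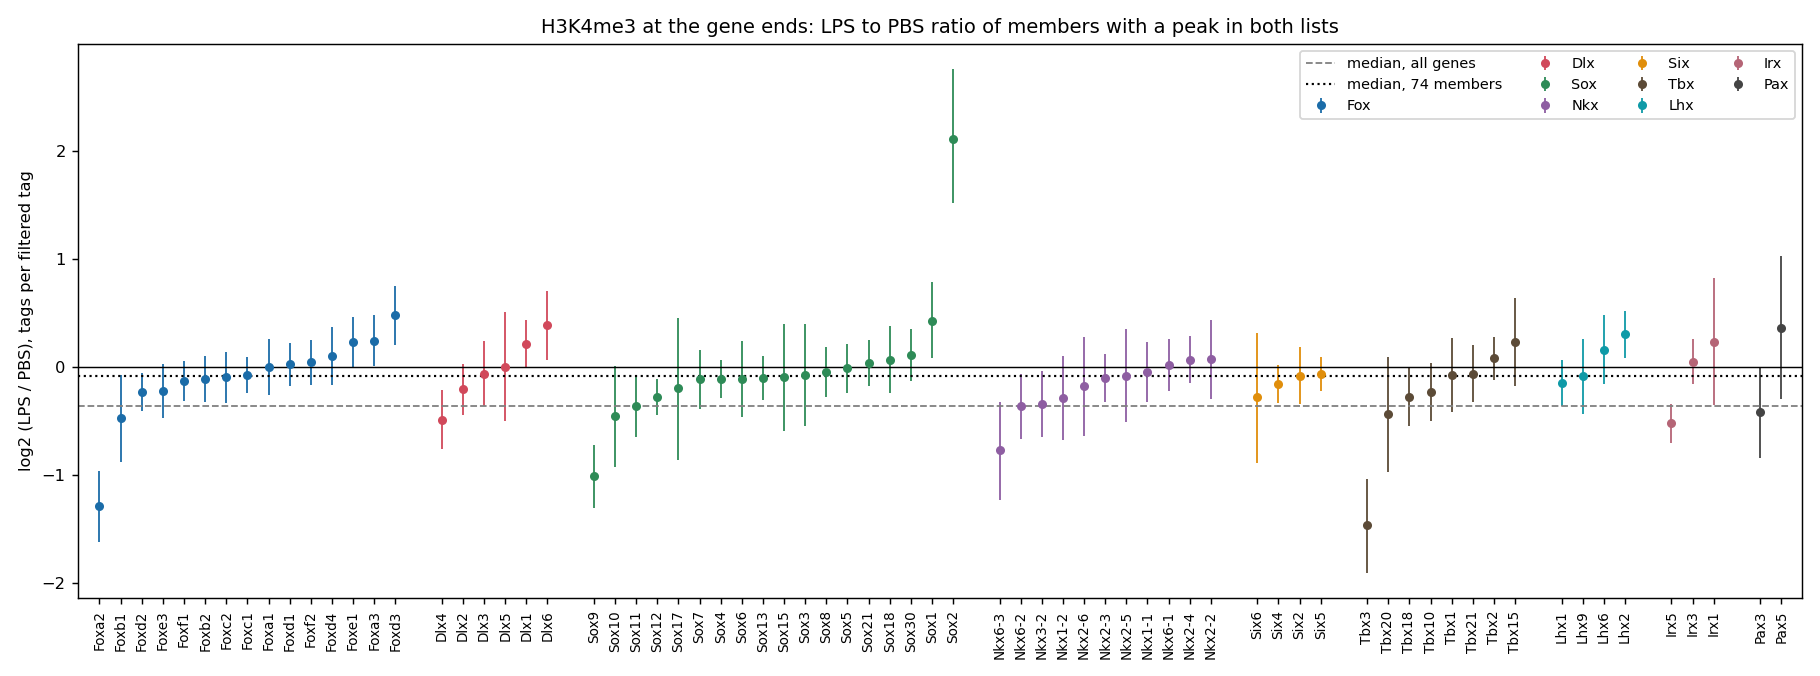
The log2 LPS to PBS ratio of H3K4me3 tags per filtered tag at the gene ends (y axis) for 71 of the 74 factors with a peak in both lists, grouped by family, with exact 95% intervals that cover counting error only. Most points sit between the line at 0 and the dashed median of all genes at -0.36 or above them. Sox2 at 2.11 stands above, and Foxa2, Sox9 and Tbx3 stand below -1.

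The factors with the most H3K4me3 in each family mostly differed little between treatments. Six5, near the myotonic dystrophy locus, had 619 tags in LPS and 720 in PBS, but its end lies within 1 kb of an end of Dmpk, so these tags may belong to either gene. Foxc1, of eye and vessel development, had 553 tags in LPS and 644 in PBS, and Sox12 had 522 in LPS and 701 in PBS. The Foxc1 ratio was -0.07 (interval -0.24 to 0.10) and the Sox12 ratio -0.28 (-0.44 to -0.11), both above the all-gene median as point values. Tbx2, of limb and heart, had 422 tags in LPS and 443 in PBS, and Irx5 had 410 in LPS and 653 in PBS. Irx5, an Iroquois factor of heart and retina, had a log2 ratio of -0.52 (-0.70 to -0.34), an interval that lies below 0 and holds the all-gene median of -0.36. Its covered length was 2.55 kb in LPS and 3.40 kb in PBS, and per covered kb the ratio was -0.11. Per covered kb the sign turned for Six5, with -0.07 by tags and 0.18 per kb, and for Tbx2, with 0.08 by tags and -0.30 per kb.
Dlx1, of forebrain interneurons, had 358 tags in LPS and 342 in PBS, Nkx2-4 had 340 in LPS and 360 in PBS, and Lhx1, of kidney and head development, had 338 in LPS and 416 in PBS. The Dlx1 ratio was 0.22 by tags and -0.46 per covered kb. Pax3, of neural crest, had far fewer, with 83 in LPS and 123 in PBS.

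Factors known from blood, vessel and stromal cells were among those marked. Tbx21, which encodes the T-bet protein of T helper and natural killer cells, had 223 tags in LPS and 258 in PBS. Pax5, the B-cell identity factor, had 44 tags in LPS and 38 in PBS. Sox18 of endothelium had 170 tags in LPS and 180 in PBS, and its relative Sox17 had 37 in LPS and 47 in PBS. The intervals of these 4 ratios all held 0. Pax5 had a ratio of 0.36 by tags and -0.48 per covered kb, and Sox17 had -0.20 by tags and 0.92 with a window of 2.5 kb, so the sign of both rests on how tags were counted. Peaks at B-cell markers lay at 3 of 8 in each list, with a summed level of 13.0 tags per 1000000 filtered tags in LPS and 18.1 in PBS, with Cd79a (256 tags in LPS and 354 in PBS) and Ebf1 (47 in LPS and 146 in PBS) listed, and Cd79b, Ms4a1, Blk and Cd22 among those not listed. Peaks at T-cell markers lay at 5 of 9 in each list (32.8 on the same scale in LPS and 34.9 in PBS), with Cd3e, Cd3g, Cd8a and Lck not listed. Cd4 had 216 tags in LPS and 277 in PBS, Tcf7 254 in LPS and 282 in PBS, Bcl11b 126 in LPS and 136 in PBS, and Cd3d 57 in LPS and 82 in PBS. Endothelial markers had peaks at 4 of 8 in each list (19.3 in LPS and 19.4 in PBS), and Pecam1, Cdh5, Tek and Tie1 were not listed, whereas Kdr had 205 tags in LPS and 270 in PBS and Erg had 104 in LPS and 78 in PBS. The lists count Pax5, Tbx21, Sox17 and Sox18 themselves. Markers of mesothelium and fibroblasts had peaks at 5 of 14 in LPS (a level of 24.0) and 9 of 14 in PBS (a level of 33.1), with Msln, Pdgfra, Col3a1, Dcn and Lum in neither. Of those in both, Wt1 had 207 tags in LPS and 321 in PBS, Pdgfrb 188 in LPS and 62 in PBS, and Col1a1 140 in LPS and 199 in PBS. So each of these lists held defining genes with H3K4me3 and defining genes without it. Their part in the values of the factors was not tested.
Sox4, a factor of lymphoid progenitors, had 500 tags in LPS and 600 in PBS, with a log2 ratio of -0.11 (-0.29 to 0.06) by tags and -0.60 per covered kb. Nkx2-3, of spleen and gut vessels, had 309 tags in LPS and 367 in PBS, and Foxf1, of gut and lung mesenchyme, had 434 in LPS and 527 in PBS. Irx3 had 362 in LPS and 388 in PBS. Each of these ratios had an interval that held 0. The tags of Nkx2-3 and Irx3 were counted at the far end of the gene. Within 1 kb of the annotated start, Irx3 had a peak in both lists and Nkx2-3 in neither. Nkx2-5, the cardiac factor, and Dlx5, of bone and limb, were weakly marked, with 87 tags in LPS and 102 in PBS for Nkx2-5, and 66 in LPS and 73 in PBS for Dlx5. The Nkx2-5 ratio was -0.08 with the window of 1 kb and 0.54 with one of 2.5 kb. Its tags were also counted at the far end, and at its annotated start only the LPS list held a peak.

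Differences of at least 2-fold were rare. With 100 or more tags in both libraries together, 1 of 72 factors was at least 2-fold higher in LPS (1.39%, beside 0.37% of 12705 genes), and 3 of 72 were at least 2-fold lower (4.17%, beside 3.65%). Those shares rest on 4 genes. Sox2, the pluripotency and neural stem cell factor, had 113 tags in LPS and 29 in PBS, a log2 ratio of 2.11 (1.51 to 2.75). Tbx3, of limb and mammary development, had 61 tags in LPS and 186 in PBS, a ratio of -1.46 (-1.90 to -1.03). Foxa2, the endoderm pioneer factor, had 107 tags in LPS and 290 in PBS, a ratio of -1.29 (-1.62 to -0.96). Sox9, of cartilage and glands, had 146 tags in LPS and 326 in PBS, a ratio of -1.01 (-1.30 to -0.72).

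At all 4 the covered length differed in the same direction as the tags, and at Foxa2 the window also left out an LPS peak. Sox2 had 2 LPS peaks, at -1.41 to -0.25 kb and 0.16 to 1.23 kb from the gene start, and 1 PBS peak at -0.50 to 0.05 kb, which overlapped the first LPS peak and covered the start, where no LPS peak was listed. Its covered length was 2.23 kb in LPS and 0.551 kb in PBS, and per covered kb the ratio was 0.10. The PBS peak had a score of 72.4 on the authors' scale, and the LPS peaks had scores of 116 and 132, where the list begins at 50. Sox9 had 1 peak of 1.35 kb in LPS, inside the 1 peak of 3.37 kb in PBS, and its ratio per covered kb was 0.31. Tbx3 had 1 LPS peak of 0.990 kb, and 2 PBS peaks that covered 2.82 kb, with a ratio per covered kb of 0.05. So Tbx3 and Sox9 were lower in LPS by total tags and not lower by tags per covered kb. Density is counted inside listed peaks only, and among genes in both lists it began at 43.8 tags per covered kb. A similar density therefore cannot show that the mark was equally strong over the locus.
At Foxa2 the PBS list had a single peak of 3.34 kb, and the LPS list had 2 peaks over nearly the same span, one of which, with 89 tags, lay outside the window. Over the merged region the Foxa2 ratio was -0.42, and per covered kb it was 0.21.

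**Figure D3:**
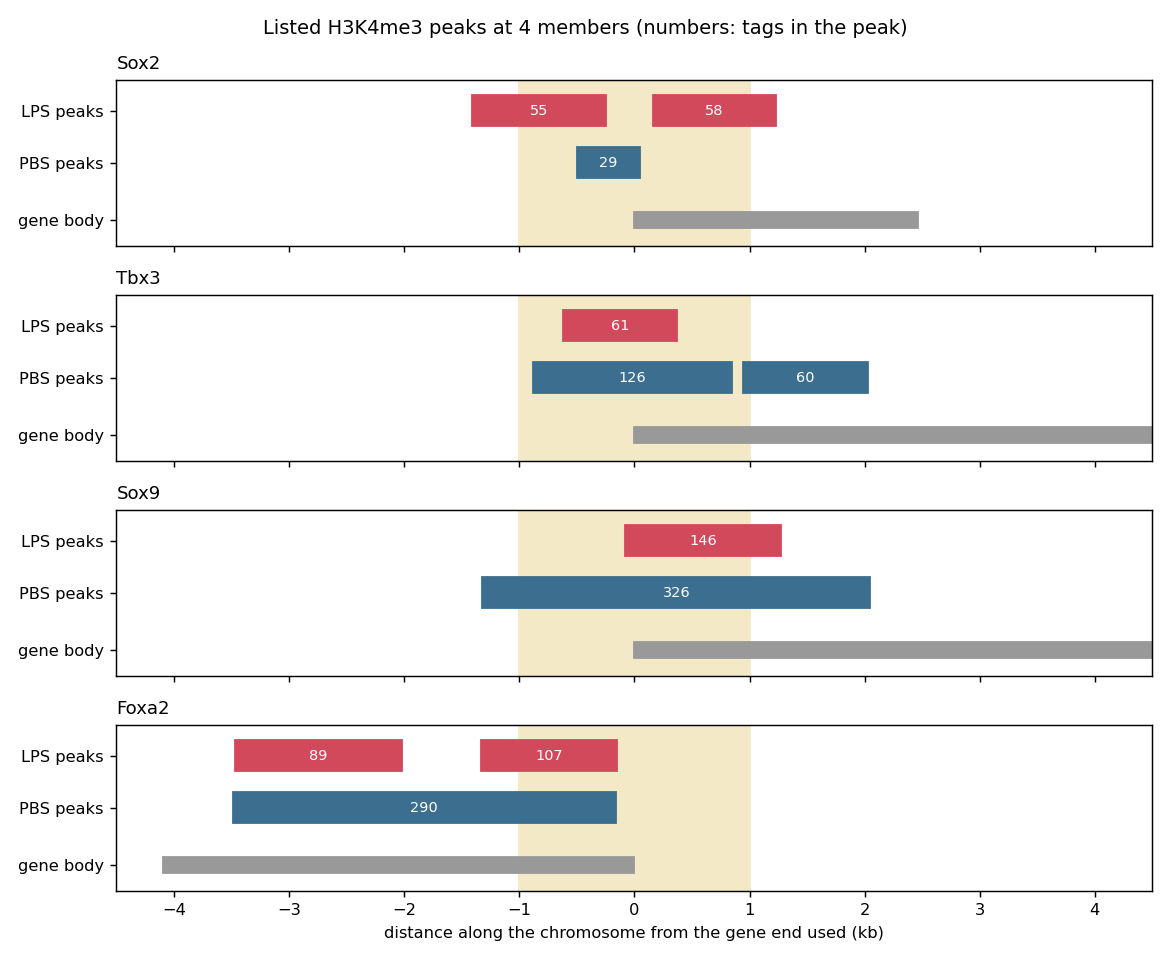
Listed H3K4me3 peaks of LPS (red) above those of PBS (blue) at 4 factors, by distance in kb along the chromosome from the gene end used. The number in each peak is its tags, the grey bar is the gene body, and the shaded band is the window of 1 kb on either side. Sox2 had 55 and 58 tags in its LPS peaks and 29 in its PBS peak, and the LPS peaks of Sox9 and Tbx3 lay within the span of their PBS peaks.

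The remaining factors with high or low ratios lay closer to 0. Foxd3, of neural crest, had 256 tags in LPS and 204 in PBS (0.48, interval 0.21 to 0.75), and Sox1, a neural factor, had 153 in LPS and 126 in PBS (0.43, 0.08 to 0.78). Dlx6 had 179 tags in LPS and 152 in PBS (0.39, 0.07 to 0.71), and Lhx2, of eye and forebrain, had 377 in LPS and 339 in PBS (0.30, 0.09 to 0.52). These 4 factors were higher in LPS beyond counting error, and per covered kb their ratios were 0.36, 0.23, 0.19 and 0.01 in that order. Nkx6-3 had 64 tags in LPS and 121 in PBS (-0.77, -1.23 to -0.32). Sox10, of neural crest and glia, had 66 tags in LPS and 100 in PBS (-0.45, -0.92 to 0.01), and per covered kb its ratio was 0.13.

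Across the 74 factors the ratio of tags followed the ratio of covered length. Pearson's r was 0.88 and Spearman's rho 0.65, and without the 4 factors past 2-fold r was 0.68 over 70. All genes gave an r of 0.81. This is a correlation across genes of the same pair of libraries, and genes are not independent replicates. Tags are counted over the covered length itself, so the measures share their construction.

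**Figure D4:**
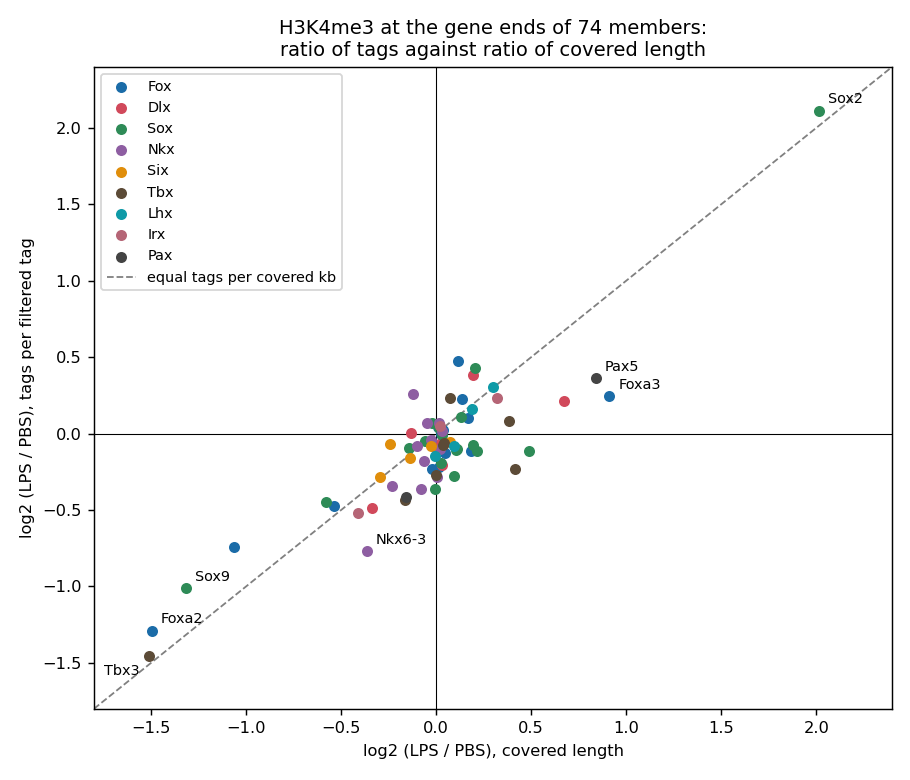
The log2 LPS to PBS ratio of H3K4me3 tags (y axis) against the log2 ratio of covered length (x axis) for 74 factors, coloured by family; on the dashed line tags per covered kb are equal in LPS and PBS. Sox2 lies at the upper end and Tbx3, Foxa2 and Sox9 at the lower end. Sox2 sits 0.10, Tbx3 0.05, Foxa2 0.21 and Sox9 0.31 above the line.

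The factors marked in 1 list only had few tags. Tbx4, of the hindlimb, had 68 tags in LPS and no PBS peak at its ends. In PBS only, Lhx8 had 104 tags, Irx2 78, Lhx5 65 and Pax6, of eye and brain, 58. Nkx2-9, Pax8 and Irx6, named because the class is small, had 51, 51 and 37 PBS tags. A factor outside a list is one with no peak past the authors' threshold, not one with no tags, so no ratio is given. The class also turned with the place counted. Within 1 kb of the start annotated in RefSeq, Pax6 was in LPS only, Irx2 in both lists and Tbx4 in neither, whereas Lhx8 and Pax8 were again in PBS only, as was Nkx2-9. Lhx5 and Irx6 had no start in the table. Tbx4, Lhx8, Irx2, Lhx5 and Pax6 had body peaks in both lists, whereas Nkx2-9, Pax8 and Irx6 had body peaks in PBS only.

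The share of the gene body under H3K4me3 was higher over the factors than over all genes, and it differed between families. The median gene length was 5.85 kb for the factors and 17.2 kb for all genes. Over the 86 factors with a body peak in both lists, the median share of the body covered was 23.6% in LPS and 27.9% in PBS, beside 5.70% in LPS and 6.50% in PBS over all genes. The median covered length was 1.84 kb in LPS and 1.89 kb in PBS, beside 1.36 kb in LPS and 1.53 kb in PBS over all genes. The Fox genes stood highest, with medians of 71.3% in LPS and 79.4% in PBS. The Pax genes (median length 55.0 kb) had medians of 4.14% in LPS and 5.66% in PBS, below those of all genes in both treatments. The Tbx genes (21.0 kb) had 6.26% in LPS and 6.34% in PBS, close to all genes. Foxe1, of the thyroid, was covered over 99.8% of its body in LPS and 90.0% in PBS, Foxd3 over 88.3% in LPS and 85.3% in PBS, and Nkx2-4 over 89.1% in LPS and 88.5% in PBS. Foxd4 had 90.2% in LPS and 81.2% in PBS, and Foxd1, of kidney stroma, 85.0% in LPS and 84.0% in PBS. At least 50% of the body was covered for 25 of 86 factors in each treatment (29.1%), beside 6.07% of 14446 genes in LPS and 6.56% in PBS.
At the gene ends the factors had fewer tags per covered kb than all genes and a somewhat larger median covered length, mainly in LPS. The median covered length was 2.00 kb in LPS and 1.93 kb in PBS, beside 1.59 kb in LPS and 1.80 kb in PBS over all genes. Family medians ran from 1.10 kb (Pax) to 3.09 kb (sine oculis) in LPS, and from 1.01 kb (Irx) to 2.94 kb (sine oculis) in PBS. A covered length of 2 kb or more was found for 38 of 75 factors in LPS (50.7%, beside 32.1% of all genes). In PBS it was found for 38 of 81 (46.9%, beside 41.3%). A length of 4 kb or more was found for 2 factors in LPS (2.67%, beside 3.43%) and 2 in PBS (2.47%, beside 4.5%). Those 2 shares rest on too few factors to be read against all genes. Tags per covered kb had a median of 95.2 in LPS and 103.2 in PBS, beside 118.5 in LPS and 149.6 in PBS over all genes.

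H3K9me3 peaks lay on more of the factors in LPS than in PBS. The body held a peak in both lists for 21 of 97 factors (21.6%, beside 16.1% of all genes), in LPS only for 21 (21.6%, beside 10.5%) and in PBS only for 9 (9.28%, beside 8.37%). In all, 42 factors (43.3%) were in the LPS list and 30 (30.9%) in the PBS list. Over all genes these were 5824 (26.6%) in LPS and 5356 (24.5%) in PBS. Of 39 Hox genes, 21 (53.8%) were in the LPS list and 8 (20.5%) in the PBS list, so the higher count in LPS was not particular to the factors. The families differed: 5 Dlx genes were in the LPS list and 1 in the PBS list, 6 Nkx genes in LPS and 2 in PBS, 11 Fox genes in LPS and 12 in PBS, and 3 Tbx genes in LPS and 4 in PBS. Among genes of up to 10 kb, 46.2% of 65 factors were in the LPS list and 27.7% in the PBS list, beside 10.3% of 7926 genes in LPS and 7.92% in PBS. Above 10 kb, 37.5% of 32 factors were in each list, beside 35.9% of genes in LPS and 33.9% in PBS. The factors thus stood above other genes in both lists among the short genes, and close to them among the long ones.

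Over the 21 factors with H3K9me3 in both lists, the median log2 LPS to PBS ratio of tags was 0.73 (quartiles 0.11 and 1.22), beside 0.09 over 3525 genes. Among genes of up to 10 kb, 14 factors had a median of 0.65 (quartiles 0.13 and 1.09), beside 0.26 over 354 genes (quartiles -0.14 and 0.75), so the quartile ranges overlapped. The ratio was above 0 for 16 of 21 (76.2%, beside 55.9% of 3525 genes). It passed 2-fold upward in LPS for 8 (38.1%, beside 14.6%) and downward for 0 (beside 9.79%). Per covered kb the median was 0.03, beside -0.02 over all genes, so LPS and PBS peaks differed in length and number and hardly in density. Foxd3 had 149 H3K9me3 tags in LPS and 58 in PBS, Lhx2 144 in LPS and 68 in PBS, and Foxe1 143 in LPS and 111 in PBS. Nkx2-4 had 132 tags in LPS and 81 in PBS, Sox30, of male germ cells, 121 in LPS and 60 in PBS, and Sox5, a gene of 954 kb, 101 in LPS and 106 in PBS. These 6 had the most H3K9me3 tags of the 21, and Sox5 alone among them had fewer tags in LPS; the counting intervals of Sox5 and Foxe1 held 0. Foxd1 had 104 tags in LPS and 33 in PBS, Pax5 had 85 in LPS and 19 in PBS, and Pax6 had 61 in LPS and 20 in PBS. Irx5 had 72 H3K9me3 tags in LPS and 31 in PBS. Foxc1 was the reverse case, with 31 tags in LPS and 58 in PBS.

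**Figure D5:**
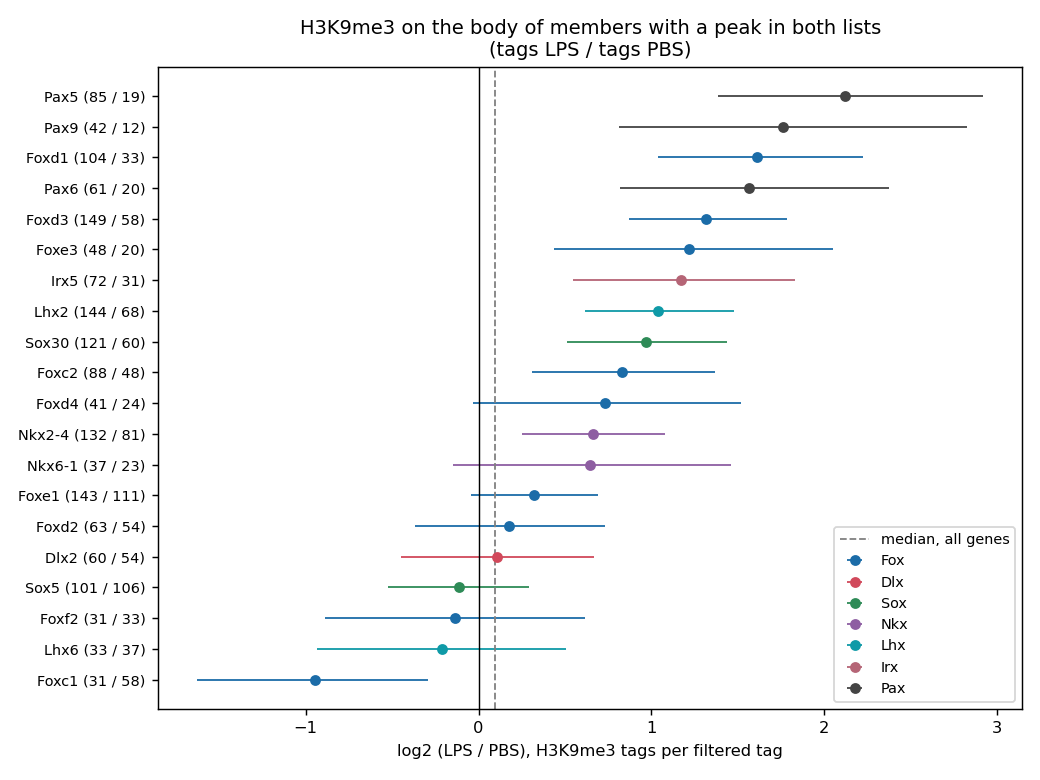
The log2 LPS to PBS ratio of H3K9me3 tags per filtered tag on the gene body (x axis) for 20 of the 21 factors with a peak in both lists, in order of ratio, with exact 95% intervals that cover counting error only. Tags of LPS and PBS stand beside each symbol. 16 of the 20 points lie above 0, and Foxc1 at -0.95 is the lowest.

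The H3K9me3 peaks on the factors mostly lay under H3K4me3. Of 63 LPS peaks on their bodies, 51 (81.0%) overlapped an H3K4me3 peak of LPS, beside 50.8% of 8528 peaks on all genes. Of 46 PBS peaks, 26 (56.5%) overlapped an H3K4me3 peak of PBS, beside 39.5% of 8166. The bodies of the factors were also more covered by H3K4me3, with medians of 23.6% in LPS and 27.9% in PBS. All genes had 5.70% in LPS and 6.50% in PBS, and the overlaps were not adjusted for this. Their median length was 438 bp in LPS and 338 bp in PBS, and their median score 69.6 in LPS and 62.9 in PBS, not far above the limit of 50. Both marks were present, with H3K4me3 at an end and H3K9me3 on the body, on 38 factors in LPS (39.2%, beside 21.4% of all genes) and on 28 in PBS (28.9%, beside 19.1%). Among genes of up to 10 kb this was 44.6% of 65 factors in LPS, beside 8.81% of 7926 genes, and 27.7% in PBS, beside 6.45%. Above 10 kb it was 28.1% of 32 factors in LPS, beside 28.5% of 13961 genes, and 31.2% in PBS, beside 26.3%. The excess thus lay in the short genes. An H3K9me3 peak overlapped an H3K4me3 peak of the same treatment on 39 of 42 factors with H3K9me3 in LPS and 20 of 30 in PBS. That count was not made over all genes. The marks were measured in separate libraries, and no input library was used in peak calling, per the file headers. Whether the marks lie on the same nucleosomes was not tested.

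The partners of these factors did not share the ratio near 0 and lay close to all genes. Of 27 cofactor genes (the Ldb, Lmo, Eya, Dach, Tle, Pbx, Meis and Pknox families), 22 had H3K4me3 in both lists. Their median log2 ratio was -0.41, beside -0.36 over all genes, and 0 of 22 were above 0, beside 1202 of 13151 genes. Eya1, a coactivator of sine oculis proteins, had 76 tags in LPS and 121 in PBS, and Lmo4 had 346 in LPS and 501 in PBS. Of 31 Polycomb genes, whose products silence many of these factors in the embryo, 27 were in both lists, with a median of -0.29. Ezh2, the H3K27 methyltransferase, had 400 tags in LPS and 553 in PBS, and Suz12 had 370 in LPS and 528 in PBS. None of the 22 cofactor genes and none of the 27 Polycomb genes was at least 2-fold higher or lower. Over 12705 genes the shares were 0.37% higher and 3.65% lower, too small to be read against lists of this size. Aebp2 and Pcgf2 were among those with a peak in PBS only, with 817 and 186 tags.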

How the data were processed

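The study's 4 ChIP-seq libraries were deposited as peak lists on mm10, 1 per mark and treatment. Per the file headers, the authors called peaks with MACS 1.4.2 without a control library, at a p threshold of 1.00e-05 and with at most 1 tag kept per position. Each deposited row gives the peak's position, its count of tags, its score (log10 of the p-value times 10, sign reversed) and its fold enrichment; the counts are raw, and the deposited fold ratio was not used for any value here. The submitters' processing notes also name Bowtie 0.12.8, CASAVA 1.4 and DiffBind. No value was read below the authors' threshold.

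Genes came from the RefSeq table of GRCm38.p6, which holds 21887 protein-coding genes on the primary chromosomes and no strand, so the gene end with more tags over both H3K4me3 libraries stood for the promoter. Of 55 marked factors with a known strand, 42 used the start end and 13 the far end. Tags of peaks within 1 kb were summed per library and divided by its filtered tags, and no pseudocount was used. A 2-fold difference was called with at least 100 tags over both libraries. H3K9me3 was counted on gene bodies. The count at gene ends was tested on simulated lists that shared the PBS peak positions and differed in tag counts only. That simulation could not test differences in peak length, splitting or listing between libraries. The software was Python 3.11.15, pandas 2.3.3, numpy 2.4.6 and scipy 1.17.1.

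Genes were named by rule: the most H3K4me3 tags per family, the 6 highest and 6 lowest ratios, the list-only genes, the most H3K9me3 tags, the widest bodies, and a fixed set known from textbooks. Some genes that the rule or the lists name are not reported here. The members and lists were chosen with earlier results of these data known. Alternatives covered the window, scaling, score limit, overlap and list length. The comparison of base composition over the group was left out, because too few promoters matched. The precision of each ratio is set by its tag count, from 82 to 1339 over both libraries for the factors in both lists.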

Additional observations from a re-analysis of the deposited data

How the results depend on the processing

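No paired analysis was possible because each mark and treatment had 1 library, and no library could be left out for the same reason. Of 73 checks of group results, 57 stayed within 1.5 times the reported count or within the counting range of the reported median. Around annotated starts only, known for 68 factors, 49 were in both lists, 3 in LPS only and 4 in PBS only. With scores of at least 100, the H3K4me3 lists held 2 factors in LPS only, and 23 had no peak. The H3K9me3 lists then shared 6 factors, held 11 in LPS only and 2 in PBS only, and lacked 78. H3K9me3 within 5 kb of the body put 14 factors in PBS only. Scaled to total tags, the H3K4me3 median over the factors turned to 0.021; its distance from all genes stayed the same by construction. Per covered kb that distance was 0.132, 0 factors were at least 2-fold higher and 0 lower, and the H3K9me3 median was 0.027. Relative to the median of all genes, 1 factor was at least 2-fold lower. Among single genes, per covered kb the ratio turned to 0.21 for Foxa2 (within the window), 0.31 for Sox9 and 0.05 for Tbx3. The sign also turned for Dlx1, Pax5, Sox10, Tbx2 and Six5. By smaller steps it turned for Nkx2-5 (from -0.08 to 0.02), Foxd4 (from 0.10 to -0.06), Sox30 (from 0.11 to -0.02) and Foxd1 (from 0.02 to -0.01). With a window of 2.5 kb it turned for Sox17 and Nkx2-5. The comparison within tag density, the start-only median, the removal of factors beside another gene and the H3K9me3 scalings were chosen after the data were seen. With 1 library per group the spread between animals is unknown, and a factor under the peak threshold cannot be told from one with no mark.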
